A study of Mus musculus with 20 samples.

Results

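Plasma cells are described here as the 480 cells, of 1367 in all, that the authors' supervised annotation names PC. The annotation holds 7 states. The other 6 are DZ and LZ, the dark and light zone B cells of the germinal centre (452 and 278 cells), LZtoDZ (48), prePC.Act (29), prePC.Mem (63) and preMem (17). Membership was taken from the deposited annotation alone, and no value was used to add or remove a cell. The plasma cells came from 351 wells of the plasma cell sort gate, 128 wells of the pre-plasma cell gate and 1 well of the dark zone gate. Called by cell cycle phase in the deposited table, 363 were in G1, 57 in S and 60 in G2M.

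C57BL/6 mice were immunised with NP-KLH (a small hapten on a protein carrier) in Sigma Adjuvant System. Lymph node B cells and plasma cells positive for eYFP were index-sorted into plates on day 15 of the primary response, 4 days after tamoxifen by gavage. FB5P-seq, a plate method that counts 5′ ends of transcripts and assembles each cell's B cell receptor, was used with 22 cycles of preamplification. The 20 plates carry the sampleID C57BL/6F (10 plates, 210 plasma cells) or C57BL/6M (10 plates, 270 plasma cells), and every group described here shares the immunisation, the tamoxifen and the eYFP sort. In the deposited cell labels the letters F and M stand under the heading Sexe (sex). The alleles behind the eYFP label, the age of the mice and their number are not given in the sources used here. Sex, animal, sampleID and anything handled with it therefore cannot be told apart, and p-values measure the spread between plates.

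Plasma cells are the antibody-secreting end stage of the B lineage. Blimp-1 (Prdm1), IRF4 (Irf4) and XBP1 (Xbp1) shut down the B cell programme and enlarge the endoplasmic reticulum (ER), through which immunoglobulin chains enter, fold, receive glycans and leave for the Golgi. Dividing precursors, the plasmablasts, precede the resting cells. In lymph nodes these cells arise both from the germinal centre, where B cells mutate their receptor genes, and outside it.

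The plasma cells held a median of 70190 counts (1506 to 736478) over a median of 1510 genes (326 to 5557). Median depth in the other states ran from 16638 counts in prePC.Mem to 229914 in prePC.Act. Molecules were tagged with 5 random bases, which gives at most 1024 different tags per gene and cell. In 91 of the 480 plasma cells (19.0%) at least 1 gene stood at that ceiling, against 1 prePC.Act cell, 3 prePC.Mem cells and none of the other states. Jchain, Igkc, Iglv1, Slpi and Iglc1 were most often at or close to it in plasma cells. Tags drawn more than once also lower counts below the ceiling. Over all 480 plasma cells the median immunoglobulin count was 5243.5, and 14526 after a correction for repeated tags. Levels of the most abundant plasma cell transcripts are therefore lower bounds. Plate 6 of C57BL/6F held 10 shallow cells and no plasma cells, so comparisons between states rest on 19 plates.

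All 6 markers of the state were higher in plasma cells than in the rest. Counts were summed per plate on each side and scaled to CPM (a gene's share of the summed counts of that side, times 1e6); the lowest, median and highest plate are listed. Sdc1, which encodes the surface proteoglycan CD138, ran at 168, 506 and 675 CPM in plasma cells against 0, 0.913 and 37.0 in the other cells of the same plates. Xbp1 ran at 2416, 3614 and 4726 CPM against 146, 315 and 608. Fkbp11, an ER prolyl isomerase, ran at 928, 1482 and 2003 CPM against 0.304, 27.5 and 87.5. The plates of these 3 genes did not overlap between plasma cells and the rest.

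Both other regulators and the joining chain overlapped in at least 1 plate. Prdm1 ran at 0, 62.0 and 239 CPM against 0, 0.896 and 32.8, and 1 plate held no Prdm1 count in its plasma cells. Irf4 ran at 61.3, 175 and 405 CPM against 0, 18.7 and 95.8. Jchain, which encodes the chain that joins IgM and IgA units, ran at 5402, 10070 and 16060 CPM against 1798, 2472 and 6167. In edgeR's quasi-likelihood fit with plate as a block, the log2 fold changes ranged from 1.95 ± 0.11 (SE) for Jchain to 8.23 ± 0.74 for Sdc1, with adjusted p from 3.57e-16 for Xbp1 to 2.60e-04 for Irf4. Prdm1 rose by 5.08 ± 0.99 (adjusted p = 2.52e-04), but within C57BL/6F alone its rise of 5.23 had an edgeR adjusted p of 0.0630. The annotation may rest on the same transcripts, so the gene values against other states describe how the state looks and are no independent test of it.

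**Figure D1:**
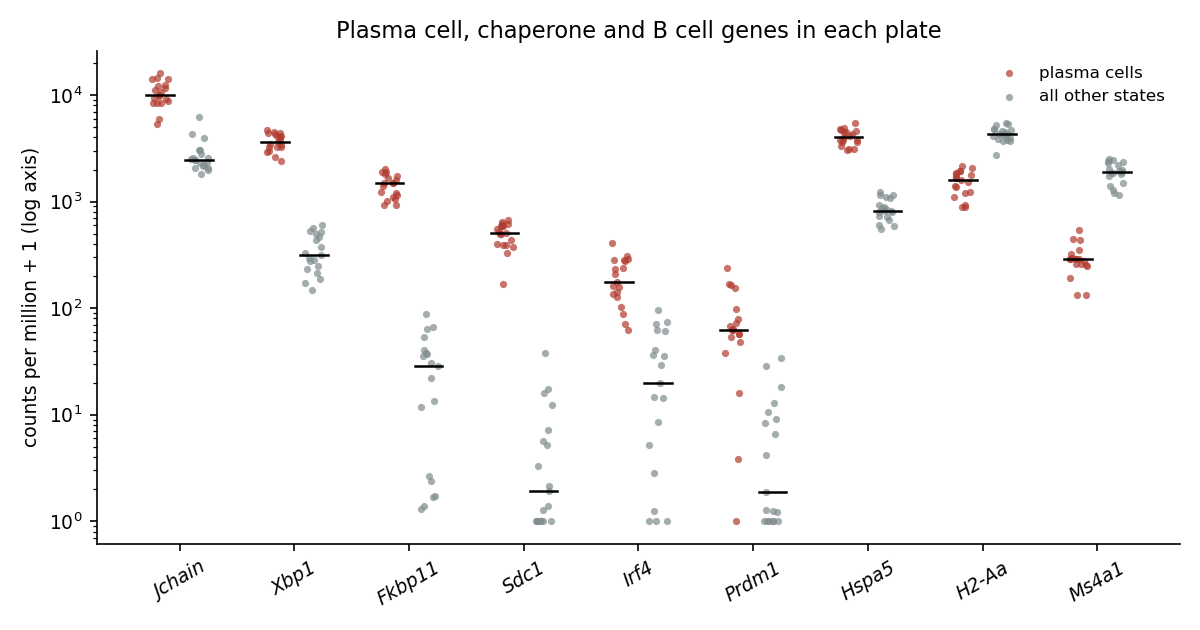
CPM + 1 on a log axis for 9 genes in 19 plates; each red point is the plasma cells of 1 plate, each grey point the other cells of the same plate, and the black bar is the median over plates. Sdc1, Xbp1 and Fkbp11 separate fully (Sdc1 medians 506 and 0.913 CPM), Prdm1 reaches 0 in 1 plate, and Ms4a1 and H2-Aa lie lower in plasma cells.

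Of 7912 genes tested, 1028 (13.0%) were higher and 1345 (17.0%) lower in plasma cells at an edgeR adjusted p under 0.05. The median log2 fold change over all genes tested was -0.36. The plate values of 264 genes did not overlap between the sides. Counts for the gene lists below are read against those 13.0% and 17.0%.

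The machinery that moves a secreted protein through the ER was higher almost throughout. Of 20 genes for ER entry and signal peptide handling, 19 rose (median 2.06 on the log2 scale), among them Ssr4, a translocon-associated subunit (3.28 ± 0.12), and Sec61a1, the channel itself (2.77 ± 0.11). All 24 genes for ER folding and disulfide formation rose (median 2.87). The chaperone Hspa5 (BiP) ran at 3055, 4025 and 5512 CPM against 548, 813 and 1237, a log2 fold change of 2.26 ± 0.06. Its plates did not overlap. Ppib, a prolyl isomerase, rose by 2.56 ± 0.07, and Mzb1, a cochaperone of B lineage cells, by 1.98 ± 0.06 from a median of 1717 to 6906 CPM.

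The steps after folding showed the same direction. Of 23 genes for N-glycosylation, 19 rose and 1 fell (median 2.33), led by the oligosaccharyltransferase subunits Ddost (2.88 ± 0.09) and Rpn1 (2.67 ± 0.11). Of 15 genes for ER-associated degradation, the route that removes misfolded chains, 13 rose (median 2.30). Edem2, which trims mannose from such chains, had the smallest adjusted p among them (1.25e-16) and ran at 816, 1215 and 1471 CPM against 25.3, 63.9 and 145. Of 24 genes for ER to Golgi transport, 23 rose (median 1.82), including the cargo receptors Tmed10 (2.85 ± 0.12) and Lman2 (2.04 ± 0.09). Of 10 sensors and factors of the unfolded protein and integrated stress responses, 6 rose (median 1.2). Ern1, the IRE1 kinase that splices Xbp1 mRNA, had a median of 48.5 CPM against 0, and Creb3l2, a secretory transcription factor, 136 against 0.236. Atf6, another ER stress sensor, rose by 2.73 ± 0.69, a call that did not hold in C57BL/6F alone (2.11, edgeR adjusted p = 0.153).

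Among 14 plasma cell regulators 10 rose and 3 fell (median 2.78). Of 12 immunoglobulin constant region genes 9 rose and 1 fell (median 2.03). Igkc, the kappa constant region, ran at a median of 8876 CPM against 2379, Iglc1, a lambda constant region, at 3357 against 638 and Ighg1 at 2861 against 581. Their log2 fold changes were 1.84 ± 0.13 for Igkc, 2.38 ± 0.12 for Iglc1 and 2.23 ± 0.18 for Ighg1. Igkc and Iglc1 are among the genes most often at or close to the tag ceiling, so their levels are lower bounds.

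Receptors of the plasma cell surface formed the list with the largest median among the secretory, receptor and adhesion lists after the 6 markers: 16 of 19 rose and none fell (median 4.24). Ly6c2, a Ly6 family surface protein, ran at 416, 913 and 1736 CPM against 0, 1.39 and 60.2. Slamf7, a SLAM family receptor, was already present in other states, at a median of 373 CPM, and stood at 1124 in plasma cells (1.57 ± 0.12). Prlr, the prolactin receptor, had a median of 67.9 CPM against 0; it overlaps the gene model Gm21973 on the same strand, so its reads may be shared.

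Of 10 integrins and adhesion molecules 4 rose and 1 fell (median 1.02). Selplg, the selectin ligand PSGL1, ran at 204, 513 and 788 CPM against 0, 45.8 and 120, and Itga4, the alpha-4 integrin, at a median of 100.3 against 3.94. Of 13 homing and egress receptors 2 rose and 3 fell (median 0.29). Cxcr3, a receptor for inflammatory chemokines, had a median of 216 CPM against 17.0. S1pr2, which holds B cells in the germinal centre, had a median of 2.32 against 166, and Cxcr5, the follicle homing receptor, 31.9 against 119. S1pr3, another sphingosine phosphate receptor, had a median of 0 against 27.8 CPM, with an edgeR adjusted p of 0.0516 in C57BL/6F alone.

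Other large rises lay outside these lists. By the rule for the largest changes that moved the same way in all 19 plates, the genes were Prlr, Tmem176a, Gpx3, Selm, Banf2os, Oosp1, Sdc1, Ly6c2, Cd93 and Hsd11b1. Gpx3, a secreted glutathione peroxidase, had a median of 183 CPM against 0, and Selm, an ER selenoprotein, 387 against 0. Oosp1, known from the oocyte, had a median of 132 against 0. Hsd11b1, which activates glucocorticoids, had a median of 225 against 0.304 and overlaps Lamb3. Banf2os lies antisense to Banf2, and whether the counting used strand is not given, so reads of the pair cannot be told apart. Folds against groups at or near 0 depend on the fit's prior count, so CPM are given beside or in place of them.

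The germinal centre and B cell programmes were lower. Of 17 germinal centre genes 16 fell and none rose (median -5.42). Cd83, an activation marker of light zone cells, had a median of 36 CPM in plasma cells against 1273. Of 22 B cell identity genes 19 fell and none rose (median -2.99). Ms4a1 (CD20) ran at 130, 288 and 540 CPM against 1160, 1878 and 2535. The transcription factors Spib and Bach2 each had a median of 0 against 133 and 65.6, and Ciita, the activator of MHC class II genes, 0 against 129.

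Transcripts of MHC class II presentation were lower too. Of 12 genes for class II presentation 10 fell and 1 rose (median -1.41). H2-Aa ran at 886, 1596 and 2147 CPM against 2757, 4295 and 5524 (-1.54 ± 0.09), and H2-DMb2 fell by 2.52 ± 0.17. Further falls of the largest size were in Sorl1, Gh, Tespa1 and Hbb-bh1, each at a median of 0 in plasma cells and between 33.9 (Hbb-bh1) and 73.7 CPM (Sorl1) elsewhere. Gh, the growth hormone gene, lies 9476 bases from Cd79b.

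Cell cycle genes were lower as a group, with fewer calls than the B cell lists. Of 25 S phase genes 16 fell (median -1.08) and of 26 G2 and M genes 12 fell (median -0.90), with none higher. Hmgb2, a chromatin protein of cycling cells, ran at 144, 558 and 910 CPM against 1301, 1572 and 2070. Mcm3, Pcna, Cenpe and Cenpa, which act in replication and at the kinetochore, fell in the whole set (-1.34, -0.88, -1.79 and -0.68) but not in C57BL/6F alone (edgeR adjusted p = 0.0791, 0.141, 0.106 and 0.124). Among 11 genes of cell cycle exit and D cyclins 3 rose and 3 fell (median -1.11). Ccnd2 had a median of 499 CPM against 125, its relative Ccnd3 18.1 against 202, the antiproliferative Btg2 600 against 147, and its relative Btg1 0 against 64.8.

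Survival, nutrient and mitochondrial lists moved in both directions. Of 12 survival and apoptosis genes 3 rose and 5 fell (median -0.51). Bcl2l11 (BIM), which promotes death, had a median of 134 CPM against 7.54. Mcl1, which protects plasma cells, had 139 against 80.5, a rise of 0.87 ± 0.21 with an edgeR adjusted p of 0.104 in C57BL/6M alone. Of 12 genes for amino acid and nutrient uptake 4 rose and 1 fell (median 0.37). Slc3a2, the heavy chain of large amino acid transporters, had a median of 831 CPM against 220. Of 8 mitochondrial genome transcripts 1 rose and 4 fell (median -0.24), the 5 calls lying between -0.32 and 0.23. The rise, in mt-Co1, did not pass with DESeq2's size factors (edgeR adjusted p = 0.0635).

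Few transcripts separated plasma cells from every one of the other 6 states when counts were summed per state. Of 3138 genes with at least 50 CPM in plasma cells, immunoglobulin genes left out, 128 stood at 2 or more times the highest other state, 53 of them within both sampleIDs. At 4 or more times there were 16 (8 within both), and at 10 or more times 4 (0 within both). The nearest state of the 16 was prePC.Act for 8, prePC.Mem for 4, preMem for 2, LZ for 1 and LZtoDZ for 1. These values carry no test, and the other states hold far fewer counts (782545 in preMem against 45599857 in plasma cells).

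Pgam2, a muscle phosphoglycerate mutase, held 65.2 CPM in plasma cells, where 8.54% of cells had a count, and no count in any other state. Against the limit of 3 counts in preMem, the shallowest state, that is at least 17-fold higher. Tmem176a, a membrane protein whose gene overlaps Tmem176b, stood at 206 CPM against 14.7 in prePC.Act (14.0-fold), with a count in 30.6% of plasma cells. Wipi1, an autophagy protein whose gene lies 1 base from Arsg, stood at 51.0 CPM, at least 13.3-fold above the same limit. Pycr1, of proline synthesis, stood at 214 CPM against 18.5 in prePC.Act (11.6-fold), and Cd93, a receptor of long-lived plasma cells, at 86.9 against 9.59 in LZ (9.06-fold). Gm16350, antisense within Arhgef10, and Pkd2l2, which overlaps Fam13b, had ratios of 8.65 and 7.39, and their reads may be shared with those genes.

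The markers themselves were partly shared with neighbouring states. Sdc1 stood at 460 CPM in plasma cells, 79.2 in prePC.Mem and 17.9 in prePC.Act, a ratio of 5.81 to the nearest state (3.33 within C57BL/6F and 10.9 within C57BL/6M). Of the 6 markers, Sdc1 alone was among the 16 genes at 4 or more times the highest other state. Fkbp11 stood at 1312 CPM in plasma cells, 431 in prePC.Mem and 127 in prePC.Act, a ratio of 3.04. Ratios of the remaining markers are not given here. Derl3, of ER-associated degradation, had a ratio of 5.27, Gne, of sialic acid synthesis, 4.74, Dnajb9, an ER cochaperone, 4.44, and Edem2 4.25 (Dnajb9 is named after its value was seen). Ly6c2 reached 914 CPM in plasma cells and 230 in prePC.Mem (3.97-fold).

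Summed levels of markers of other cell types ran from 0.132 to 112 CPM in plasma cells. Over the 12 measured T cell markers the plasma cells summed to 106 CPM (0 to 226 over plates), below every other state; Lck and Cd2 made up most of it and both fell against the rest (Cd2 not in C57BL/6F alone, edgeR adjusted p = 0.236), while Cd4 and Cd8a were at 0. The 12 myeloid markers summed to 112 CPM (23.0 to 398), above the 4.44 to 44.1 of DZ, LZ, LZtoDZ, prePC.Act and prePC.Mem and below the 247 of preMem. Cd68, a lysosomal protein, gave 95.1 of it; Adgre1 was at 0 and Csf1r had 1 count. Cd68 rose by 2.18 ± 0.79 (edgeR adjusted p = 0.0380), a call lost without any 1 of plates 7, 8, 10, 11, 12, 15, 17 and 18 (edgeR adjusted p = 0.0519 to 0.0687) and in C57BL/6F alone (0.520). The 10 dendritic and NK cell markers summed to 45.5 CPM (0 to 108), with Ncr1 at 0 and Flt3 lower than in the rest, though not within either sampleID alone (edgeR adjusted p = 0.0659 and 0.0828). The 10 stromal and endothelial markers summed to 37.8 CPM (16.1 to 91.9), nearly all Pecam1, which did not pass the test (-0.29 ± 0.30, edgeR adjusted p = 0.513), with Col1a1 at 0. The 5 red cell and platelet markers summed to 0.132 CPM (0 to 1.16), and Hbb-bt fell. The part of these transcripts in the comparisons was not tested.

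Immunoglobulin genes took a median of 7.60% of a plasma cell's counts, from 0.850% to 55.1%, with the middle of the cells between 4.63% and 10.5%. Medians were 1.58% in DZ, 1.70% in LZ, 0.931% in LZtoDZ, 1.55% in prePC.Act, 2.08% in preMem and 17.3% in prePC.Mem, the one state above plasma cells. As a mean over the cells of a plate, the share ran at 5.50%, 8.10% and 11.5% (lowest, median, highest plate) in plasma cells against 1.71%, 2.85% and 6.18% in all other cells. Plasma cells were higher in 18 of 19 plates, by 5.13 percentage points ± 1.98 (SD over plates; two-sided sign-flip permutation test, adjusted p = 4.86e-05, from the smallest p that 100000 resamples can give). With counts corrected for tags drawn more than once, the difference was 13.6 points, and with constant region genes alone 2.27 points.

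Depth moved with this share. Across the 480 plasma cells the immunoglobulin share fell as total counts rose (Spearman's rho -0.937), and since the total is the denominator the points share a value. Immunoglobulin counts per cell rose with total counts (rho 0.417; 0.269 after correction for repeated tags). The share rose with the spike-in share of the cell (rho 0.758), and with the CD138 signal (rho 0.390). Plasma cells held 5226 ± 629 immunoglobulin counts per cell against 1215 ± 252 in the other cells (SD over 19 plates; higher in 19 of 19, permutation adjusted p = 2.33e-04), and 94878 ± 30922 total counts against 73080 ± 22542.

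**Figure D2:**
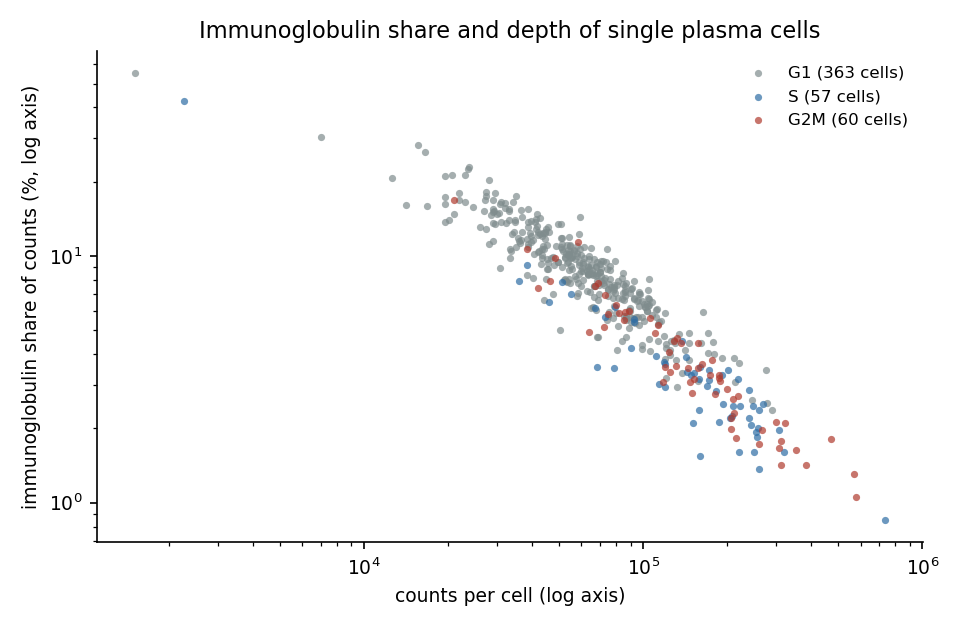
Immunoglobulin share in percent (vertical, log axis) against total counts (horizontal, log axis) for each of the 480 plasma cells, coloured by deposited phase. The share falls along the depth axis (rho -0.937), and the S and G2M cells (medians 159640 and 147970 counts) lie at the deep, low-share end of the G1 cells (median 61156 counts).

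Cycling plasma cells, those called S or G2M, carried the lower immunoglobulin share. In the 15 plates with at least 5 cells on each side, the share ran at 2.21%, 3.85% and 7.06% in cycling and 6.46%, 9.79% and 12.4% in G1 plasma cells. It was lower in 15 of 15 plates, a difference of -5.67 points ± 1.63 (exact permutation test, adjusted p = 8.65e-05), or -12.4 points after the tag correction. Immunoglobulin counts per cell stood at 4999 ± 595 in cycling and 5179 ± 560 in G1 cells, a difference of -180 (permutation adjusted p = 0.121), while total counts were 170160 ± 50858 against 64311 ± 14759. With counts corrected for repeated tags, the difference was -2448 immunoglobulin counts per cell (adjusted permutation p = 0.0007), so the call on the counts changes with that correction, as it does without plate 13 (adjusted permutation p = 0.0388).

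**Figure D3:**
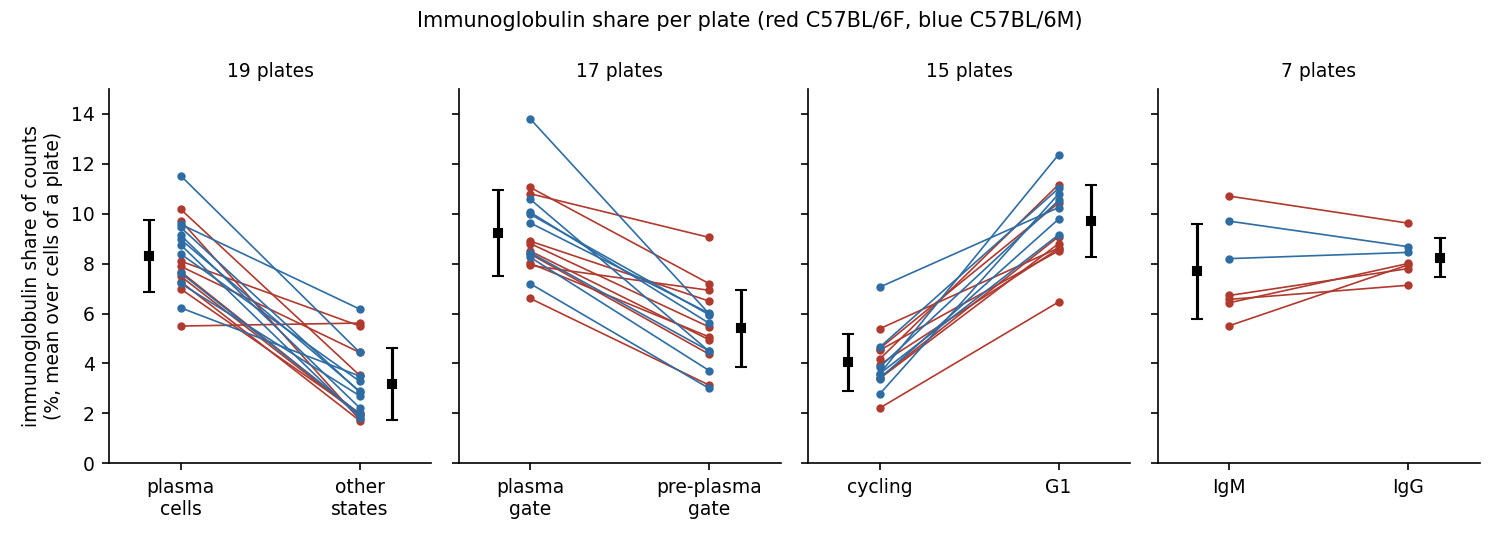
Immunoglobulin share in percent, each line joining both sides of 1 plate (red C57BL/6F, blue C57BL/6M), with the mean ± SD over plates as black squares. The panels show 19 plates of plasma cells against other states, 17 of plasma against pre-plasma gate, 15 of cycling against G1 and 7 of IgM against IgG plasma cells; in the last the lines go both ways (means 7.69% and 8.23%).

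Plasma cells cycled less often than the remaining cells of their plates, most of which were DZ and LZ cells. The share in S or G2M ran at 7.14%, 22.7% and 40.0% over plates in plasma cells against 44.8%, 62.2% and 74.0% in the rest, lower in 19 of 19 plates, a difference of -36.7 points ± 11.9 (permutation adjusted p = 4.86e-05). With the second deposited phase column the difference was -26.0 points. By state, 24.4% of plasma cells were in S or G2M against 65.5% of DZ, 54.0% of LZ, 89.6% of LZtoDZ, 96.6% of prePC.Act and 38.1% of prePC.Mem cells, and 1 of 17 preMem cells. By the second column prePC.Mem, at 14.3%, lay below the 21.3% of plasma cells; single states were not tested. Since the phase was called on transcripts of unequal depth, the summed S phase genes are given beside it: 2942 ± 1022 CPM in plasma cells and 6866 ± 1394 in the rest, and 1983 ± 620 against 5750 ± 812 for G2 and M genes.

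Between cycling and G1 plasma cells, 468 of 5760 genes (8.12%) were higher and 414 (7.19%) lower in cycling cells by edgeR's adjusted p. The plate values of 99 of the 5760 genes did not overlap between these sides. Cell cycle genes are part of the phase call and are given only as a description: 24 of 25 S phase and 23 of 23 G2 and M genes were higher, with Plk1, Ckap2l, Nusap1, Ncaph, Sgol1 and Rrm2 at the smallest adjusted p. Rrm2, a subunit of ribonucleotide reductase, ran at 860, 1736 and 3029 CPM against 5.37, 83.8 and 234.

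Secretory transcripts were lower in the cycling cells relative to their larger totals. Of 24 ER folding genes 18 were lower (median -0.84), as were 11 of 15 for ER-associated degradation (-0.99), 10 of 20 for ER entry (-0.54), 10 of 23 for N-glycosylation (-0.48) and 4 of 24 for ER to Golgi transport (-0.25), with none higher. The median over all genes was 0.05. Jchain ran at 2515, 4495 and 7504 CPM in cycling and 9254, 15790 and 26740 in G1 plasma cells (-1.82 ± 0.09). Ssr4 (-1.82 ± 0.09), Igkc (-1.59 ± 0.08) and Mzb1 (-1.30 ± 0.07) did not overlap between the sides either. B2m, the light chain of MHC class I, and the nuclear RNA Malat1 fell by 1.59 and 1.75. Of the 6 markers 5 were lower, as were 9 of 10 immunoglobulin constant regions and 4 of 7 mitochondrial transcripts. Lower depth of the G1 cells moved with all of these, and its part was not tested beyond thinning each cell to 5000 counts, which left 214 genes higher and 220 lower.

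The sort gate split the state further. Plasma cells from the plasma gate had a higher immunoglobulin share than those from the pre-plasma gate, 6.60%, 8.81% and 13.8% against 3%, 5.46% and 9.05% over 17 plates, and were higher in 17 of 17 by 3.83 points ± 1.54 (permutation adjusted p = 4.86e-05). The tag correction moved the difference to 8.83 points, and G1 cells alone gave 2.67. Immunoglobulin counts per cell differed in the same direction, 5356 ± 647 against 4923 ± 769 (14 of 17 plates, permutation adjusted p = 0.00200), and total counts in the opposite one, 79569 ± 24656 against 139260 ± 62746. In the plasma gate 16.1% ± 9.72 of the cells were in S or G2M and in the pre-plasma gate 47.9% ± 15.6 (19 plates, none higher in the plasma gate, permutation adjusted p = 3.05e-04).

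Of 5713 genes, 267 (4.67%) were higher and 73 (1.28%) lower in the plasma gate (edgeR adjusted p under 0.05), around a median of 0.24 over all genes, 0.13 with DESeq2's size factors. The plate values of 8 of the 5713 genes did not overlap between the gates. Pon3, a paraoxonase, ran at 1725, 2508 and 3328 CPM in the plasma gate and 206, 574 and 948 in the pre-plasma gate, with no overlap. Edem2 ran at 1214, 1745 and 2154 against 242, 544 and 1024, and Spcs1, of the signal peptidase, at 2651, 3463 and 4595 against 1061, 1566 and 2254, also with no overlap. Iglv1, Jchain and the heavy chain variable gene Ighv6-3 completed the 6 smallest adjusted p; Ighv6-3 ran from 42.5 to 7569 CPM over the plates of the plasma gate. Of 24 ER folding genes 15 were higher (median 0.58), with 8 of 20 for ER entry (0.49), 7 of 15 for ER-associated degradation (0.54), 5 of 23 for N-glycosylation (0.61, 1 lower), 3 of 23 for ER to Golgi transport (0.30) and 9 of 19 surface receptors (1.70, 1 lower).

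Most transcripts of antigen presentation were higher in the plasma cells of the pre-plasma gate. Of 9 MHC class II genes 6 were lower in the plasma gate and 1 higher (median -1.03). H2-Aa ran at 344, 1024 and 1382 CPM in the plasma gate and 1310, 2636 and 3334 in the pre-plasma gate (-1.31 ± 0.14), with overlap. Laptm5, a lysosomal brake on the B cell receptor, had a median of 74.3 against 651, and Ptprcap, which binds CD45, 314 against 753. Apoe, the lipid carrier, ran at 0, 66.1 and 1001 CPM against 330, 1890 and 4830 (-4.97 ± 0.76), and Lipc, a lipase, at a median of 0 against 106. With G1 cells alone 206 genes were higher and 19 lower, and with thinned cells 164 and 116, while the median over all genes was 0.996 with G1 cells alone and 0.02 with thinned cells.

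The gates were set on surface protein, so plasma cells were tested against other cells for protein only inside the pre-plasma gate. It held 128 plasma cells and 149 other cells. Signals are the deposited inverse hyperbolic sine values (raw signal divided by 10 or 100), given as means per plate over 19 plates. CD138 ran at 1.17, 1.73 and 2.10 in plasma cells against 0.916, 1.07 and 1.72, higher in 19 of 19 plates by 0.595 ± 0.263 (SD). PSGL1, the protein of Selplg, was higher in 19 of 19 by 0.643 ± 0.282. The permutation adjusted p was 4.86e-05 for each.

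Several other signals were lower on the plasma cells of that gate. GL7, a glycan of germinal centre cells, fell by 1.36 ± 0.630 (18 of 19 plates lower), CD86, a costimulatory ligand, by 0.986 ± 0.596 (17 of 19), CD38 by 0.823 ± 0.505 (18 of 19), CXCR4, the receptor that places cells in the dark zone, by 0.644 ± 0.426 (17 of 19), and the pooled Gr1, CD3 and IgD channel by 0.360 ± 0.253 (16 of 19), with permutation adjusted p between 4.86e-05 and 8.65e-05. Over all gates the order for CXCR4 was the opposite: the 480 plasma cells had the highest median of the 7 states (3.17, against 2.78 in LZtoDZ, 2.73 in DZ and 2.20 in LZ), a description, since the gates differ between states. The CD38 median over all gates was 0.412 in plasma cells, above DZ (0.286) and LZ (0.317) and below the other states, likewise a description. B220 (-0.162, adjusted p = 0.105) and the dead-cell dye (0.148, 0.178) did not pass the permutation test. Transcript and protein were loosely related across the 480 plasma cells: rho was 0.458 for Sdc1 and CD138, 0.345 for Cd38, 0.195 for Ptprc and B220, 0.151 for Selplg and PSGL1, 0.0751 for Cd86 and 0.0743 for Cxcr4.

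**Figure D4:**
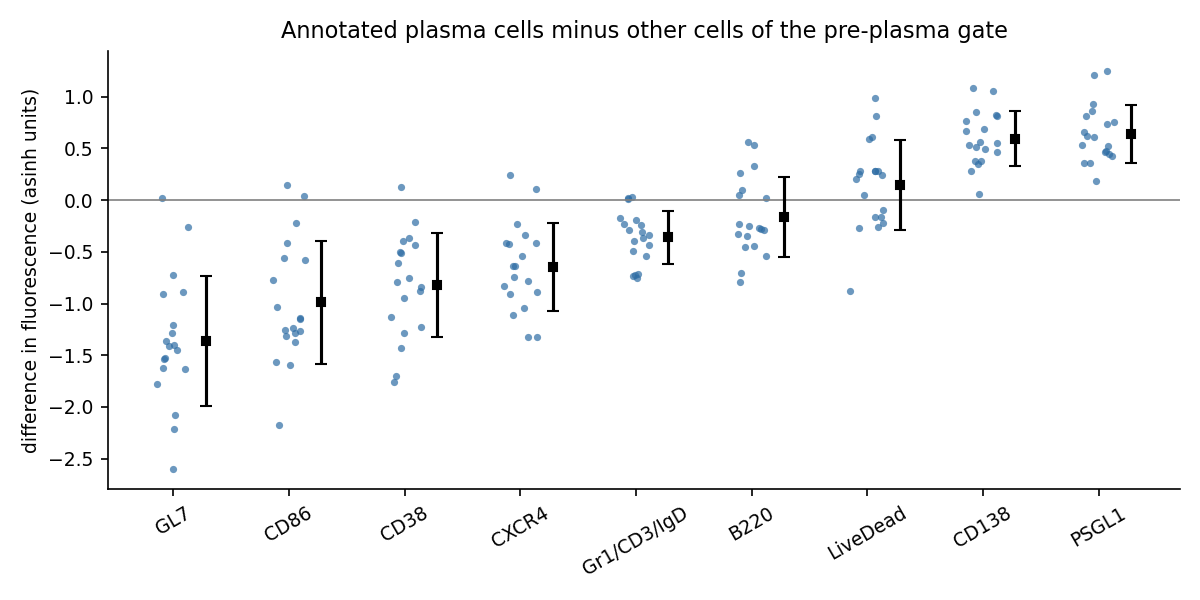
Difference in each of 9 index-sort signals (asinh units) between the annotated plasma cells and the other cells of the pre-plasma gate, 1 point per plate (19 plates), with the mean ± SD over plates. CD138 (0.595) and PSGL1 (0.643) lie above 0 in 19 of 19 plates, and GL7 (-1.36), CD86, CD38 and CXCR4 lie mostly below it.

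Inside the plasma gate, surface signals also varied with phase, a comparison chosen after the data were seen. Over 12 plates, cycling plasma cells had more CD38 than G1 plasma cells (0.371 ± 0.255, 12 of 12 plates) and less CD138 (-0.407 ± 0.144, 12 of 12 lower), each with an exact permutation adjusted p of 0.00131. GL7 was higher by 0.769 ± 0.573 and B220 by 0.229 ± 0.165 in 11 of 12 plates each (adjusted permutation p = 0.00228 and 0.00320). PSGL1 was higher by 0.224 in 8 of 12 plates (adjusted permutation p = 0.0499), a call lost without any 1 of plates 3, 5, 10, 12, 13, 15, 17 and 20 (adjusted permutation p = 0.0725 to 0.0960). GL7 and B220 did not pass in C57BL/6M alone (adjusted permutation p = 0.0841 for each). CXCR4, CD86, the pooled channel and the dye did not pass, apart from the pooled channel without plate 10 (adjusted permutation p = 0.0410).

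A heavy chain was assembled in 475 of the 480 plasma cells. By the first bases of its constant region, 348 were IgG1 or IgG2 (73.3%, exact binomial interval 69.0% to 77.2%), 94 IgM (19.8%, 16.3% to 23.7%), 30 IgG3 and 3 IgE. The gene counts, from the same wells, gave the same class: Ighm led the heavy constant counts in all 94 IgM cells, Ighg1, Ighg2b or Ighg2c in 347 of the 348, and Ighg3 in all 30. By leading gene, Ighg1 cells numbered 176 (53 in C57BL/6F, 123 in C57BL/6M), Ighg2c cells 100 (57 and 43) and Ighg2b cells 74 (27 and 47).

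IgG made up 60.7%, 81.8% and 90.9% of the assembled plasma cells over plates and 50%, 72.4% and 89.7% of the other cells. Plasma cells were higher in 14 of 19 plates, by 8.22 points ± 13.9 (permutation adjusted p = 0.0216). By state, IgG made up 79.6% of assembled chains in plasma cells, 93.9% in LZtoDZ, 78.6% in prePC.Act, 76.1% in DZ, 68.9% in LZ, 66.7% in prePC.Mem and 33.3% in preMem. The preMem share rests on 15 chains, that of prePC.Act on 28 and that of LZtoDZ on 33. The call did not hold in C57BL/6F alone (5.44 points, adjusted permutation p = 0.403). Within the state, IgG was more frequent in the plasma gate than in the pre-plasma gate (84.1% ± 9.94 against 68.1% ± 17.8, 13 of 19 plates higher and 5 lower, permutation adjusted p = 0.00667), but not in C57BL/6M alone (11.4 points, adjusted permutation p = 0.141). IgM cells were in S or G2M in 33.1% ± 20.9 and IgG cells in 21.8% ± 9.77 over 17 plates, which did not pass (permutation adjusted p = 0.111) as a whole and did in C57BL/6M alone (adjusted permutation p = 0.0124) and without plate 4 (0.0166).

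Few transcripts were called between IgM and IgG plasma cells, in a fit of low power. On counts simulated without differences between plates, unlike the real pools, this fit recovered 1% of 2-fold and 14% of 4-fold changes. Over the 7 plates with at least 5 IgM cells, 3 of 5722 genes (0.0524%) were higher and 9 (0.157%) lower in IgM cells (edgeR), and 337 had an unadjusted p under 0.05; the median over all genes was -0.45, or -0.33 with DESeq2's size factors. The plate values of 16 of those 5722 genes did not overlap between the classes. DESeq2's Wald test called 19 higher and 166 lower. At that power no secretory list held a call, with medians from -0.39 for the stress sensors to -0.13 for ER entry. The immunoglobulin share was 7.69% ± 1.91 in IgM and 8.23% ± 0.785 in IgG cells, a difference of -0.543 points (5 of 7 plates lower, exact permutation adjusted p = 0.332).

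Of the 12 genes called, 9 were immunoglobulin genes. The sides were set by the constant region of the assembled chain, so the calls of Ighm and the Ighg genes follow from the split. Ighm ran at 5244, 6694 and 11620 CPM in IgM against 98.6, 300 and 470 in IgG cells, and Ighg1 at 5.05, 24.7 and 211 against 1305, 3781 and 6505. Ighg2b and Ighg2c were also lower in IgM cells. The variable genes Ighv11-2 and Igkv14-126 were higher in IgM cells, at medians of 1804 and 1861 CPM against 49.4 and 81.4, while Ighv1-69, Igkv4-53 and Igkv9-120 were lower. Igkv4-53, Igkv9-120 and Ighg2b each lost the call without 1 of several plates (plates 3 and 15 for all 3; edgeR adjusted p from 0.0521 to 0.162). Igkv9-120 is named after its value was seen.

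The other 3 genes were all lower in IgM plasma cells. Slpi, a secreted inhibitor of leukocyte proteases (chromosome 2, 164354070 to 164389095, GRCm38), ran at 35.3, 341 and 1592 CPM in IgM and 4355, 6279 and 8962 in IgG cells, with no overlap, a log2 fold change of -4.02 ± 0.66 (edgeR adjusted p = 0.0239). Pycard, the inflammasome adaptor ASC (chromosome 7, 127989708 to 127993867), ran at 109, 218 and 386 CPM against 586, 818 and 1290 (-1.68 ± 0.27, edgeR adjusted p = 0.0232). Fut8, which adds core fucose to N-glycans, ran at 49.3, 101 and 209 against 232, 386 and 542 (-1.83 ± 0.32, edgeR adjusted p = 0.0357). Slpi and Fut8 are named after their values were seen. Slpi lost the call without plates 1, 3, 12 or 15 (edgeR adjusted p = 0.0521 to 0.106), Pycard without 1, 3, 10 or 15 (0.0546 to 0.0766) and Fut8 without 1, 3, 5, 10 or 12 (0.0928 to 0.162). Slpi and Fut8 did not pass in C57BL/6F alone (edgeR adjusted p = 0.301 and 0.0921), and too few plates held IgM cells for C57BL/6M alone. In the plasma gate alone Slpi differed by -5.02 (edgeR adjusted p = 0.00144), Pycard by -2.18 (0.0691) and Fut8 by -2.94 (0.0539), around a median over all genes of -0.89 in that fit.

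Split by leading constant gene, summed Slpi was 877 CPM in Ighm cells, 7009 in Ighg1, 5022 in Ighg2b, 5778 in Ighg2c and 3536 in Ighg3 cells. Pycard followed at 251, 1007, 656, 858 and 661. The Ighm cells were lowest for both among these 5 classes, which have no plate test here. The 3 Ighe cells had Slpi at 6329 CPM and Pycard at 231, the latter below the Ighm cells.

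**Figure D5:**
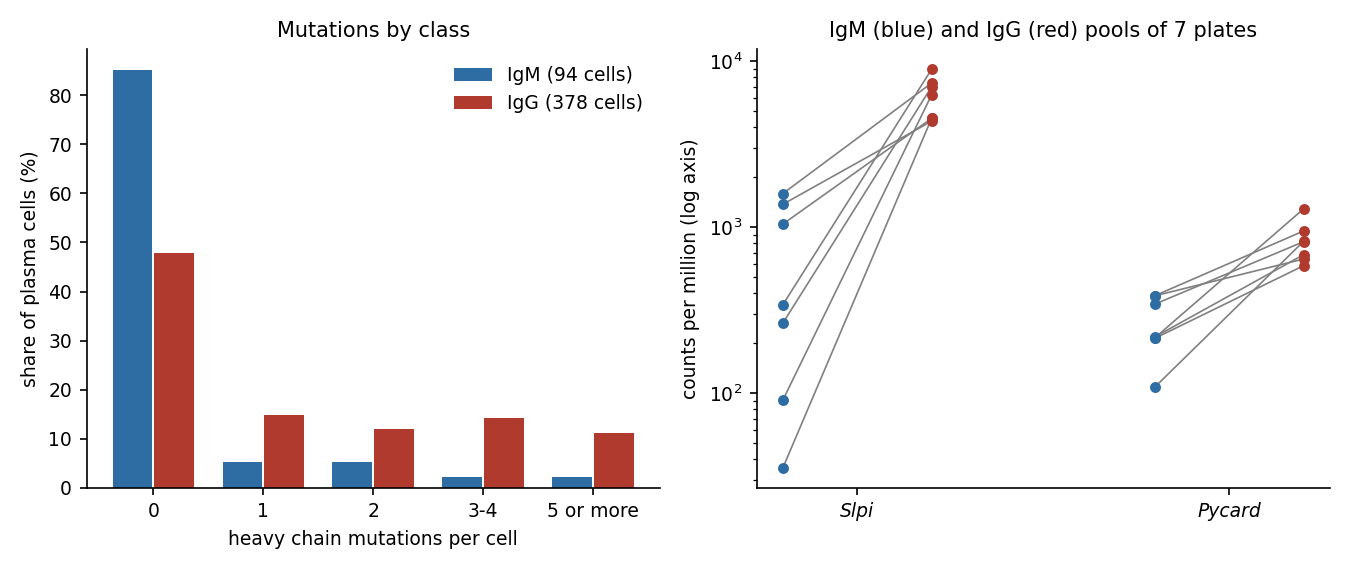
Heavy chain mutations by class as the share of plasma cells, and Slpi and Pycard CPM per plate in IgM and IgG plasma cells (7 plates, each line 1 plate). IgM cells are mostly unmutated (80 of 94), and both genes are lower in IgM cells in 7 of 7 plates, with no overlap between the classes (Slpi 35.3 to 1592 against 4355 to 8962 CPM). Over all genes tested, 16 of 5722 did not overlap.

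Surface protein split the classes inside the plasma gate too, again in a comparison chosen after the data were seen. Over 9 plates (41 IgM and 138 IgG cells), IgM plasma cells had less CD138 (-0.402 ± 0.100, 9 of 9 plates lower) and less PSGL1 (-0.295 ± 0.127, 9 of 9), each with an exact permutation adjusted p of 0.00684. GL7 was higher by 0.519 ± 0.330 and CD38 by 0.410 ± 0.317 in 8 of 9 plates each (exact permutation adjusted p = 0.0130 and 0.0186). CXCR4 was lower by 0.349 in 7 of 9 (exact permutation adjusted p = 0.0285), lost without any 1 of plates 5, 11, 12, 15, 16 and 19 (exact permutation adjusted p = 0.0547). Each kept its direction in either sampleID alone and none passed there, where so few plates do not allow an exact p under the threshold.

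Plasma cells carried few mutations. Of 475 heavy chains 263 were unmutated, the mean was 1.38 mutated bases, the highest 14, and 44 chains had 5 or more. Per plate the mean ran at 0.571, 1.45 and 2.09 in plasma cells against 2.00, 3.61 and 4.77 in the other cells, lower in 19 of 19 plates, a difference of -2.22 ± 0.958 (permutation adjusted p = 4.86e-05). Among IgG chains alone the difference was -2.24. By state, the unmutated share was 55.4% in plasma cells, 66.7% in prePC.Mem, 46.4% in prePC.Act, 26.7% in preMem, 17.2% in LZ, 10.3% in DZ and 9.09% in LZtoDZ. The preMem and LZtoDZ shares rest on 4 of 15 and 3 of 33 chains. IgM plasma cells were unmutated in 80 of 94 (mean 0.383) and IgG plasma cells in 181 of 378 (mean 1.63); over 17 plates the means were 0.361 ± 0.733 and 1.66 ± 0.551, lower for IgM in 16 of 17 (permutation adjusted p = 7.70e-04), though not in C57BL/6F alone (adjusted permutation p = 0.0656). Plasma gate cells had 1.22 ± 0.365 mutations and pre-plasma gate cells 1.91 ± 1.16 (lower in 11 of 19 plates, permutation adjusted p = 0.0195, passed in neither sampleID alone). The median over cells was 0 in both gates, and 197 of 348 and 66 of 126 chains were unmutated. Cells of 1 clone are not independent, and the mutated clones cl486 and cl541, described below, gave 6 and 7 of the pre-plasma gate cells.

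The heavy chains used 73 variable genes, 13 of them in 10 or more plasma cells. IGHV1-72, the gene of the canonical response to NP, was in 62 of 475 plasma cells (13.1%) and 59 of 515 other cells (11.5%), with a mean of 2.45 mutations. IGHV1-22 was in 39 (8.21%) and 55, with 4.97 mutations. IGHV11-2, a gene known from B-1 cells, was in 21 plasma cells (4.42%) and 8 other cells (1.55%). Those 21 cells came from 13 plates and from both sampleIDs (11 C57BL/6F, 10 C57BL/6M), belonged to 3 clones, and were all IgM with 0 mutations. Cells of 1 clone are not independent, so these shares carry no test. The genes lie on chromosome 12 of GRCm38 (minus strand), Ighv11-2 at 114048241 to 114048812 and Ighv1-72 at 115757984 to 115758461.

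The 475 plasma cells fell into 312 deposited clones. Of these, 244 held 1 plasma cell and 68 held 2 or more (231 cells). A cell of another state was present in 63 of the 312 clones (179 plasma cells), a germinal centre cell in 52 (144) and a pre-plasma cell in 20 (91). The 144 plasma cells with a germinal centre cell in their clone had a mean of 2.74 mutations, and 25.7% of them were unmutated. The 331 without such a clone member had 0.782, and 68.3% were unmutated. IgM cells made up 20 of the former and 74 of the latter. Of the 596 clones of the series, 461 held 1 cell, and a chain was assembled in 53.8% of DZ and 54.3% of LZ cells. Lack of a sampled germinal centre member therefore does not show that a clone had none. Cells of both sampleIDs shared a clone in 25 of 596 clones of the series, and in 12 of these both sides held plasma cells. A shared clone is the deposited label, and common descent was not tested.

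The 5 largest plasma cell clones are shown by the most frequent heavy chain junction among their plasma cells, read from the deposited assemblies 5′ to 3′. Capitals mark the junction, from the codon of the conserved cysteine to that of the conserved tryptophan, and lower case the flanking variable and joining gene bases.
cl486 (IGHV1-22): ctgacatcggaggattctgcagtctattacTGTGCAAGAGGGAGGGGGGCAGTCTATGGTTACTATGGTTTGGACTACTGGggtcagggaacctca
cl93 (IGHV11-2): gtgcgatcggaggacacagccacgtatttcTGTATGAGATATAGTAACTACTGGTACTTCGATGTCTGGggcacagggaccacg
cl261 (IGHV6-3): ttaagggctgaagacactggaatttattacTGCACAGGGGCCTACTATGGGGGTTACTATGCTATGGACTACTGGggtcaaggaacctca
cl541 (IGHV1-22): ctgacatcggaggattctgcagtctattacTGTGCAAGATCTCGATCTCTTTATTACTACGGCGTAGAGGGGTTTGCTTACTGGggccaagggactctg
cl435 (IGHV1-72): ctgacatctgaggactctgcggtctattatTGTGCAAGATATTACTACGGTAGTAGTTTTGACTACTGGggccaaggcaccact
They are shown because the largest clones differed in class, mutation and the states of their other members.

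Clone cl486 was mutated, and its germinal centre cells outnumbered its plasma cells. It held 15 plasma cells among 36 cells, 17 of them germinal centre cells, all 15 IgG with 3 to 9 mutations (median 7, germinal centre median 8), and 14 of the 15 came from C57BL/6M. Its printed junction of 51 bases stood in 3 of the 15, with 9 distinct junctions in all. Clone cl541, with the same variable gene, held 9 plasma cells among 22 cells, all C57BL/6F and IgG with 1 to 8 mutations, and 7 of the 9 came from the pre-plasma gate.

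Clone cl93 was the reverse. Its 14 plasma cells among 19 cells were all IgM with 0 mutations, 13 came from the plasma gate, 1 germinal centre cell belonged to it, and both sampleIDs contributed (8 and 6 cells, 11 plates). Its 39-base junction stood in 4 of the 14, with 6 distinct junctions, so the deposited clone joins heavy chains with different junctions. Clone cl261 held 10 plasma cells of C57BL/6F among 11 cells, all IgG with the 1 junction shown and 0 to 1 mutations. Clone cl435 held 8 plasma cells among 9, all IgG from the plasma gate with 1 to 3 mutations, from both sampleIDs (2 and 6) and with 4 distinct junctions. Neither cl261 nor cl435 held a germinal centre cell.

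Deposited clusters divided the plasma cells into 5 groups of 46 to 200 cells, plus 1 cell each in clusters 0 and 9. The clusters were made from the same transcripts, so their values are descriptions. Cluster 1 (200 cells, no cell of another state) was 193 IgG cells, 190 from the plasma gate and 188 in G1, with Slpi at 9108 CPM. Cluster 8 (63 cells) held 33 IgM and 27 IgG cells, 85.0% unmutated, with Slpi at 437 and Ly6c2 at 1739 CPM. Cluster 3 (108 cells) held 92 cycling cells, 65 from the pre-plasma gate, 39 IgM cells and a median of 3.23% immunoglobulin, and shared its cluster with 28 prePC.Act cells.

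Cluster 10 (46 cells) had the highest summed level of class II presentation genes of the 5. It held 41 cells from the pre-plasma gate, a median CD138 signal of 1.87 against 4.13 in cluster 1, Prdm1 at 252 CPM against 43.3, class II presentation genes summing to 23220 CPM against 11744, and Cd28, a costimulatory receptor named after its value was seen, at 0 CPM against 239. It was also the most mutated of the 5, with 2.48 mutations on average and 28.3% unmutated chains. Cluster 7 (61 cells, 46 from C57BL/6M) was the shallowest at a median of 31963 counts, with 14.1% immunoglobulin and Slpi at 11795 CPM, and shared its cluster with 43 prePC.Mem cells. Of the 63 prePC.Mem cells, 33 came from the plasma gate. Leaving prePC.Mem out of the other states moved the difference in immunoglobulin share from 5.13 to 6.21 points.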

How the data were processed

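Single cells were index-sorted from mouse lymph nodes into 20 plates. The deposited matrix holds whole-number counts of 16047 genes in 1367 cells, for which the submitters' processing notes name mm10 as build, HTSeq 0.9.1 and STAR 2.5.3a; how cells and doublets were filtered, and whether counting used strand, is not given in the sources used here, and no doublet caller was run on these sorted wells. The authors' deposited table of cells gives the plate, gate, annotation, phase, clone, assembled receptor, the spike-in share as a fraction of counts, and index-sort and cell cycle values on an arbitrary score scale (inverse hyperbolic sine of the signal divided by 10 or 100, per the file headers).

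Counts were summed per plate and side (at least 5 cells a side) and tested with edgeR 4.0.16 (TMM, filterByExpr, quasi-likelihood, plate as block, Benjamini-Hochberg over all genes tested, threshold 0.05), in R 4.3.3. DESeq2 1.42.0 was an alternative. Single values per plate were compared with two-sided sign-flip permutation tests, exact up to 15 plates and over 100000 resamples from 17 plates on (scipy 1.17.1), adjusted over 17 planned or 35 added values. Heavy chain class was not in a column as the design assumed and was read from the last 5 bases of the assembled chain against the starts of the constant region genes in GENCODE M21, which does not separate IgG1 from IgG2. Counts were corrected for repeated tags by the number of molecules that 1024 equally used tags imply. Intervals are exact binomial at 95% and, like the limit of 3 counts for a level of 0, cover counting error only.

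Named genes were the 6 markers, the 10 largest rises and 6 largest falls with the same direction in every plate, the 10 highest ratios to any other state at 50 CPM or more, 2 to 4 genes per list with the smallest adjusted p, and the 6 smallest adjusted p per direction within the state; others are named as chosen afterwards. Members and gene lists were chosen with earlier results of these data known. Counts were simulated with 200 genes changed and, unlike the real pools, without differences between plates. On these the fit of plasma cells against other states recovered 22% of 2-fold and 30% of 4-fold changes with 3.7% false calls (7491 genes). The IgM fit recovered 1% and 14% with 0% (4868 genes). Some measured items are not reported here.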

Additional observations from a re-analysis of the deposited data

Results flagged for a closer look

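In 1 of 16 comparisons tested for it, the sampleIDs differed. The gap in immunoglobulin share between plasma gate and pre-plasma gate plasma cells was 2.93 points ± 1.02 (SD, 9 plates) in C57BL/6F and 4.84 points ± 1.42 (8 plates) in C57BL/6M, a difference of -1.91 points (exact permutation of the sampleID over plates, adjusted p = 0.0105). Both gaps had the same sign in all 17 plates. Sex, animal and handling cannot be told apart. No plate stood far from the others in any of 33 groups of plates examined.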

How the results depend on the processing

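Both sides of every comparison were paired within plates, with the plate as block. By replicate number, no paired analysis was possible because replicate numbers here name accessions in order and no label ties an accession to a plate. No called single value or named gene changed sign under any setting in which it was tested. For the other called genes, direction was compared only where they were called again. Calls higher and lower in plasma cells (1028 and 1345) became 2543 lower with DESeq2's Wald test, 512 and 394 in C57BL/6F alone, 810 lower in C57BL/6M alone, and 659 and 832 with cells thinned to 5000 counts.

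Plasma gate calls (267 and 73) became 542 and 326 with DESeq2's Wald test, 73 and 9 in C57BL/6F, 139 and 23 in C57BL/6M, 19 lower with G1 cells alone, and 164 and 116 with thinned cells. Cycling calls (468 and 414) became 1008 and 738, 208 and 232, 175 and 184, 136 and 199 within the plasma gate, and 214 and 220 with thinned cells, for the same settings in turn. IgM calls (3 and 9) became 19 and 166 with DESeq2's Wald test, 13 and 58 with no filter on low counts, 0 and 2 without immunoglobulin genes (Slpi and Pycard), 28 lower with G1 cells alone, 5 and 36 in the plasma gate, and 10 and 16 with thinned cells. The median log2 fold change over all genes moved too in these IgM fits. It was -1.05 with G1 cells alone, -0.89 in the plasma gate, -0.71 with no filter and -0.04 with thinned cells. C57BL/6M alone held too few plates for an IgM fit. The cause was not tested, beyond the fewer plates or cells that a subset holds.

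The IgG share difference was 5.44 points in C57BL/6F. Inside the pre-plasma gate the dead-cell dye passed against germinal centre cells alone (0.269), as did B220 (-0.301), which also passed by cell medians (-0.319) and in C57BL/6M (-0.257).

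Leaving out each plate in turn, plasma cell calls ran from 962 to 1107 higher and 1207 to 1440 lower, gate calls from 225 to 298 and 58 to 88, cycling calls from 405 to 553 and 358 to 497, and IgM calls from 3 to 4 and 4 to 11, the 4 without plate 3. The immunoglobulin share difference ran from 4.97 to 5.42 points, by gate from 3.58 to 4.00, by phase from -5.85 to -5.45 and by class from -0.814 to -0.227. The dye ran from 0.102 to 0.206, passing without plate 3, and B220 from -0.202 to -0.127, passing without plates 3 or 10. Groups compared on 7 plates, shallow cells and repeated tags, saturated in 91 plasma cells, limit what these counts can show.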
